A study of Homo sapiens with 12 samples.

Results

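The integrated stress response was examined through 43 genes chosen by name. The genes are 3 eIF2 kinases, ATF4 and the transcription factors around it, stress effectors, enzymes of serine, asparagine and one-carbon metabolism, and cytosolic aminoacyl-tRNA synthetases. They were chosen with earlier results of these data known. All 43 were found among the 60605 genes of the table, and all 43 passed the low count filter that left 30967 genes to test. RNA was sequenced from cells of SBC5, a line established from a human small cell lung cancer and labelled wild type, 3 days after treatment. Cells received the PARP inhibitor olaparib at 1 µM, or its solvent DMSO, 2 hours before 4 Gy of gamma radiation or none. The 4 groups are the combination (olaparib, then 4 Gy), radiation (DMSO, then 4 Gy), olaparib (no radiation) and vehicle (DMSO, no radiation), with 3 libraries each. The model is 1 cell line, and the sources do not say whether the libraries of a group came from separate cultures, so p-values measure the spread between these libraries, which may be technical.

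In this pathway, kinases that sense different stresses phosphorylate the initiation factor eIF2, which lowers protein synthesis in general and raises translation of ATF4 mRNA. The ATF4 protein pairs with C/EBP family partners on C/EBP-ATF response elements and turns on genes that make, import and load amino acids, among them many cytosolic tRNA synthetases. Feedback genes of the same programme restore translation or limit growth signalling. ATF4 activity is set largely at the protein level, so its mRNA is not a measure of it, and neither eIF2 phosphorylation nor ATF4 protein was measured here.

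Of the 12 libraries, 3 carried high counts over genes that most tissues do not express: scaled to counts per 1000000 (CPM), 381 olfactory receptor genes summed to 1875 CPM in olaparib 2, 2079 CPM in olaparib 3 and 914.5 CPM in radiation 3, and to 354 to 500.9 CPM in each of the remaining 9. These 3 libraries are given apart, and the results rest on 3 combination, 2 radiation, 1 olaparib and 3 vehicle libraries with total counts of 19.4 to 38.8 in units of 1000000. Statements on which libraries lay above or below others cover these 9, unless one of the 3 is named. Within the 9, the same sum was 460.8 to 500.9 CPM in the combination, 356.3 and 485.8 CPM in radiation, 383.6 CPM in olaparib 1 and 354 to 431.7 CPM in vehicle, so it moved with the combination against vehicle; its part in the results was tested only as a covariate over all 12 libraries. Of the small cell lung cancer markers, YAP1 had 84 to 124 CPM and SYP 16.4 to 27.3 CPM, while INSM1 (at most 0.285 CPM) and CHGA (at most 0.538 CPM) were near 0. The summed level of these markers, per library size, was 465.8 to 500.3 CPM in the combination, 563.3 and 586.9 CPM in radiation and 637.8 CPM in olaparib 1, against 643.1 to 713.4 CPM in vehicle. Of the 11 tested, SOX2, YAP1 and MYC were lower in combination versus vehicle (log2 change -0.82, -0.41 and -0.49, edgeR adjusted p = 1.78e-16, 0.000147 and 0.02), and their part in the results was not tested. Leukocyte markers summed to 2.19 to 5.31 CPM in the 9 libraries and 13.1 to 35.6 CPM in the 3 given apart. Fibroblast markers summed to 88.3 to 96.3 CPM in the combination, against 106.6 to 110.3 CPM in vehicle, and their part in the results was not tested. In bulk RNA, a change in the share of cells of one kind and a change in RNA per cell cannot be told apart.

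In the combination, 16 of the 43 genes were higher than in vehicle and 0 were lower (edgeR's quasi-likelihood test, Benjamini-Hochberg adjusted p under 0.05 over all genes tested); 1.53% of all genes tested were called higher and 3.26% lower. The 0 lower calls stood beside 1 lower at an unadjusted p under 0.05 and 0 lower by DESeq2 and by limma-voom. The median log2 change of the 43 was 0.33, against 0.016 over all genes, and 36 of the 43 had a change above 0. In 20 of the 43, every combination library lay above every vehicle library, and in 2 every one lay below; 9.15% and 10.4% of all genes tested did so. In radiation alone, 14 of the 43 were higher than in vehicle and 0 lower, with 0.42% of all genes called higher and 0.678% lower. There, 1 was lower at an unadjusted p under 0.05, and DESeq2 and limma-voom each called 0 lower. The median was 0.27, against -0.029 over all genes. DESeq2 called 16 higher in the combination and 15 in radiation, and limma-voom 14 and 12. Without radiation 1 the radiation count was 9, and without vehicle 1 or vehicle 2 it was 10. Both comparisons share the vehicle libraries, so their values are given side by side and are not independent of each other. Since the 43 were chosen with earlier results of these data known, their share of calls is not an independent test of the pathway. With all 12 libraries in 1 fit, 0 of the 43 were called higher in either comparison. Each of the 14 kept its direction in radiation, where radiation 3 was added. The combination and vehicle groups hold the same libraries in the fits of 9 and of 12, so the direction of the 16 could hardly change. With the olfactory receptor sum as a covariate over the 12, 15 and 13 were called higher. With library size as the sole scaling, where all genes had a median log2 change of 0.216, 25 were called higher in the combination, among them ATF4, PHGDH, SESN2 and CHAC1.

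**Figure D1:**
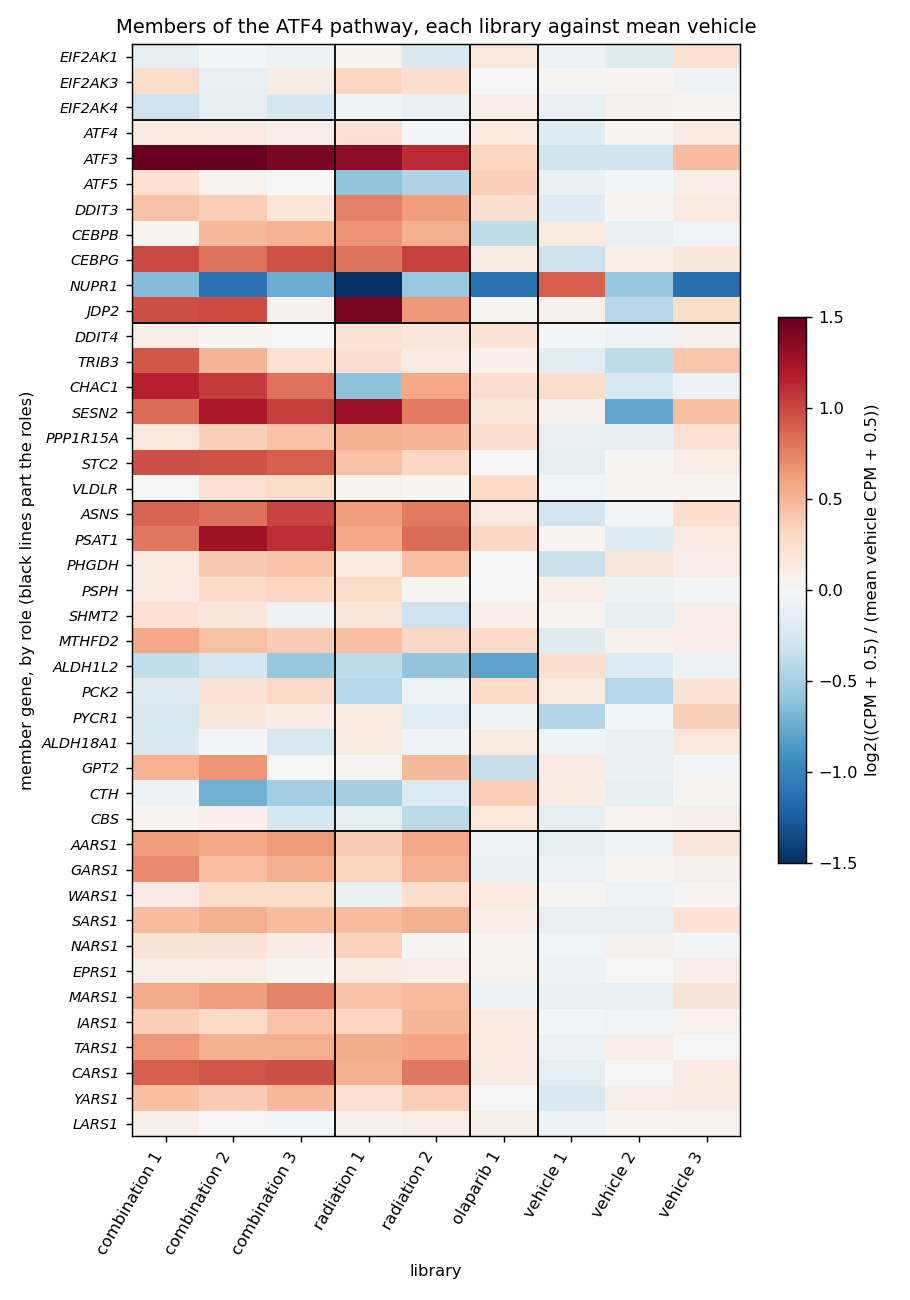
Each row is 1 of the 43 genes and each column 1 of the 9 libraries, with combination, radiation, olaparib and vehicle from left to right. The colour is the log2 ratio of CPM to the mean vehicle CPM, with 0.5 added to both, and it saturates at 1.5 in either direction. The synthetase block at the bottom is red in most combination and radiation libraries, with LARS1, EPRS1, NARS1 and WARS1 paler, and the kinases at the top and ATF4 show little colour.

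The sequences that carry the C/EBP-ATF core are shown because it is the element that ATF4 and its partners bind. Whether ATF4 acted on these genes here was not tested. Promoter windows ran from 250 bases before to 50 bases past each RefSeq start (GRCh38.p14), and 34 of the 43 genes had at least 1. No window was used for PSPH, GPT2, SHMT2, NUPR1, LARS1, ALDH1L2, EIF2AK1, PYCR1 and YARS1. Some genes have more than 1 start, and the 34 had 53 windows. The motif TGATGNAA was searched on both strands, on the opposite strand read as its reverse complement, and a gene counted where any of its windows held it. It occurred in the windows of 9 of the 15 genes that were called higher in combination versus vehicle and had a window (60%, exact 95% interval 32.3% to 83.7%). It occurred in 3 of the 19 that were not called (15.8%), which were CHAC1, JDP2 and NARS1, and in 1217 of 27303 genes overall (4.46%). Counted by window, the shares were 39.1% for called genes, 10.0% for those not called and 3.62% for all promoters. The exact octamer TGATGCAA, which the first motif includes, was found in 6 of the 15 called genes (40%), in the same 3 of the 19 not called (15.8%) and in 1.08% of all genes. Many of these genes were assembled from what is known of ATF4 targets, so the motif is a description of the windows and no site was tested. The interval treats the 15 genes as random draws, which they are not, so it does not test the shares set beside it. The 9 stretches of 58 bases below are written 5′ to 3′ on the strand of the gene, with the motif or its reverse complement in capitals. The first 4 have the largest changes, and the other 5 were added after their values were seen.
ATF3 chr1:212565176-212565233 (+ strand): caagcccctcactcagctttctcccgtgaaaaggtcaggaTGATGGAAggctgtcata
CARS1 chr11:3057408-3057465 (- strand): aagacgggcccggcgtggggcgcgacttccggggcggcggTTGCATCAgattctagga
CEBPG chr19:33374031-33374088 (+ strand): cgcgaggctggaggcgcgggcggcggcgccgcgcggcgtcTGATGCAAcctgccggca
ASNS chr7:97872459-97872516 (- strand): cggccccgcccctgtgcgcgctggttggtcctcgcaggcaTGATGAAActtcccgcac
MARS1 chr12:57488024-57488081 (+ strand): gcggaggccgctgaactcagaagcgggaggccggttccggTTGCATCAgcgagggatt
AARS1 chr16:70289676-70289733 (- strand): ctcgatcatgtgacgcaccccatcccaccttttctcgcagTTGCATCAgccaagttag
TARS1 chr5:33440927-33440984 (+ strand): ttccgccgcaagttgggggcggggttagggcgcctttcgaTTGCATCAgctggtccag
GARS1 chr7:30594805-30594862 (+ strand): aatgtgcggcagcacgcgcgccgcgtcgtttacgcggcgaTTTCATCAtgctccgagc
IARS1 chr9:92293693-92293750 (- strand): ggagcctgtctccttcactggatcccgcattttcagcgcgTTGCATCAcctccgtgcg
In ATF3, CEBPG and ASNS the core read in the direction of the gene, and in the 6 synthetase stretches it lay on the opposite strand. In CARS1 and MARS1 it spanned the start itself, from 2 bases before the start to base 6 in CARS1 and from 4 bases before it to base 4 in MARS1. In TARS1 it lay just past the start, at bases 3 to 10.

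**Figure D2:**
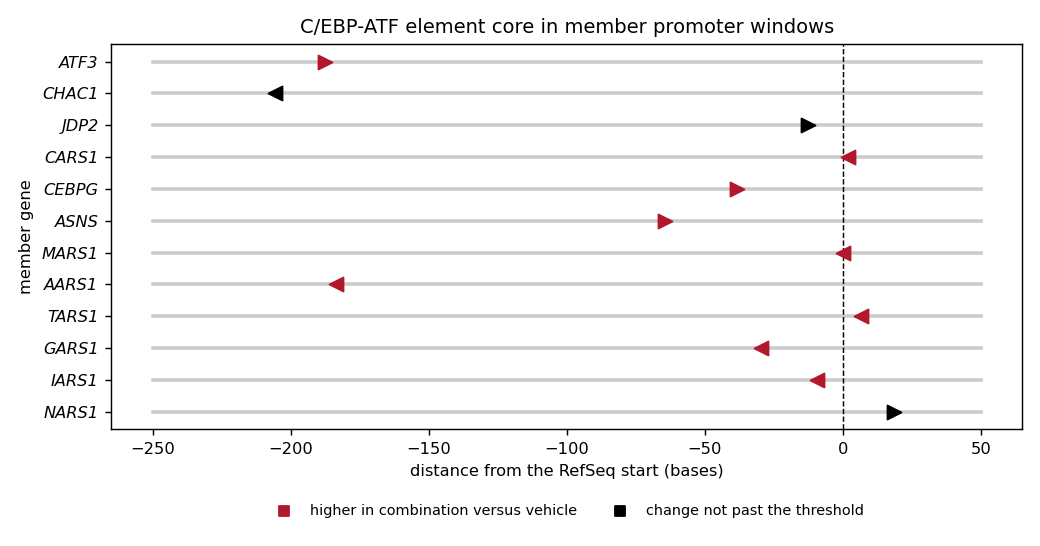
Each grey line is the motif-holding window of 1 of the 12 genes that had one, ordered by log2 change in combination versus vehicle. The x axis is the distance in bases from the RefSeq start of that window. Triangles mark the motif and point right where it reads in the direction of the gene and left where it lies on the opposite strand; red triangles are genes called higher and black ones CHAC1, JDP2 and NARS1, whose change did not pass the threshold. In 9 of the 12 the motif lies within 100 bases of the start, and in ATF3, CHAC1 and AARS1 it lies farther upstream.

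The 3 eIF2 kinases among the 43 were not called in either comparison. Another eIF2 kinase, EIF2AK2, is not among the 43. EIF2AK4, also known as GCN2, senses uncharged tRNA and had 62.0, 70.3 and 64.1 CPM in the combination libraries, 74.3 and 72.1 CPM in the radiation libraries and 82.8 CPM in olaparib 1, against 71.4, 80.5 and 79.3 CPM in the vehicle libraries. Its 3 combination libraries were the lowest of the 9, but the change did not pass the adjusted threshold (log2 change of -0.24, with an SE of 0.085 and adjusted p = 0.104). EIF2AK3, the endoplasmic reticulum kinase PERK, had 88.4 and 84.0 CPM in the radiation libraries, both above the vehicle range of 68.5 to 72.5 CPM (log2 change 0.28, adjusted p = 0.167), and its combination libraries spread on both sides of vehicle. EIF2AK1, known as HRI, responds to heme shortage and mitochondrial stress; its log2 change was -0.081 in combination versus vehicle and -0.093 in radiation versus vehicle, with adjusted p = 0.809 and 0.855.

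ATF4 (ENSG00000128272) mRNA did not pass the threshold in any comparison. It had 158, 157 and 152 CPM in the combination libraries, 167 and 141 CPM in the radiation libraries and 159 CPM in olaparib 1, against 127, 148 and 156 CPM in the vehicle libraries. Combination 1 and 2, radiation 1 and olaparib 1 lay just above the vehicle range, and combination 3 and radiation 2 lay inside it. The log2 change was 0.12 (SE 0.077, adjusted p = 0.546) in the combination and 0.10 (SE 0.086, adjusted p = 0.789) in radiation. Without radiation 1 the radiation change was -0.022, and with library size as the sole scaling the combination change was 0.32 (adjusted p = 0.00175), where the median over all genes was 0.216.

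Of the 8 transcription factors, ATF3, CEBPG and DDIT3 rose in both comparisons with vehicle. ATF3 (ENSG00000162772), a stress-induced bZIP factor that acts downstream of ATF4, had 7.99, 9.95 and 7.27 CPM in the combination libraries, 6.90 and 5.83 CPM in the radiation libraries and 3.15 CPM in olaparib 1, against 1.88, 1.87 and 3.52 CPM in the vehicle libraries. Within the 9 libraries, all 5 irradiated ones lay above every unirradiated one, at 153 to 222 counts, against 48 to 120 counts. Olaparib 2, given apart, had 7.33 CPM by library size, above radiation 1 and radiation 2 on that scale (6.90 and 5.92 CPM). By TMM over the 12 it had 5.38 CPM, below both (7.62 and 6.37 CPM). The combination was 3.45-fold vehicle (log2 change of 1.79, with an SE of 0.27 and adjusted p = 1.53e-06) and radiation 2.62-fold (log2 change of 1.39, with an SE of 0.29 and adjusted p = 0.00275). The radiation call was lost without vehicle 2 (adjusted p = 0.0527) or radiation 1 (0.0944), and with only the 2 groups compared in the fit (0.0538).

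CEBPG (ENSG00000153879), a dimer partner of ATF4 with little activation domain of its own, had 45.2, 39.9 and 44.0 CPM in the combination libraries, 39.5 and 46.2 CPM in the radiation libraries and 24.4 CPM in olaparib 1, against 17.9, 24.2 and 25.5 CPM in the vehicle libraries. The irradiated libraries all lay above the others, and both irradiated groups overlapped each other. The combination was 1.91-fold vehicle (log2 change of 0.93, with an SE of 0.11 and adjusted p = 6.76e-09) and radiation 1.90-fold (log2 change of 0.92, with an SE of 0.12 and adjusted p = 5.13e-07).

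DDIT3 (ENSG00000175197) encodes CHOP, a factor linked to cell death after unresolved stress. It had 69.6, 66.4 and 58.1 CPM in the combination libraries, 86.7 and 79.6 CPM in the radiation libraries and 61.0 CPM in olaparib 1, against 44.7, 52.2 and 56.9 CPM in the vehicle libraries. Radiation was highest, the combination lay between it and vehicle, and olaparib 1 lay above vehicle and within the combination range. Radiation was 1.62-fold vehicle (log2 change of 0.70, with an SE of 0.10 and adjusted p = 1.82e-06) and the combination 1.26-fold (log2 change of 0.34, with an SE of 0.092 and adjusted p = 0.0152). The combination call was lost without vehicle 1 (adjusted p = 0.213), vehicle 2 (0.0518), combination 1 (0.139) or combination 2 (0.095) and by limma-voom (0.0881), and the covariate fit ended both calls (adjusted p = 0.199 and, in radiation, 0.0574).

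The other factors were not called. JDP2, a bZIP repressor, was counted 15 to 89 times per library and had 2.05, 2.06 and 0.855 CPM in the combination libraries, 2.97 and 1.54 CPM in the radiation libraries and 0.815 CPM in olaparib 1, against 0.862, 0.475 and 1.06 CPM in the vehicle libraries. Combination 3 lay inside the vehicle range while the other irradiated libraries lay above it (log2 change of 1.05, with an SE of 0.52 and adjusted p = 0.343 in the combination). CEBPB, another C/EBP partner, had 6.90 and 6.20 CPM in radiation and 4.24 to 6.13 CPM in the combination, against 3.80 to 4.59 CPM in vehicle. ATF5, which like ATF4 is controlled through upstream reading frames, had 2.60 and 2.94 CPM in radiation and 4.23 to 5.02 CPM in the combination, against 3.88 to 4.55 CPM in vehicle. NUPR1, a stress-induced chromatin protein, ran from 0.9 to 8.98 CPM over the 9 libraries with its maximum in vehicle 1.

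**Figure D3:**
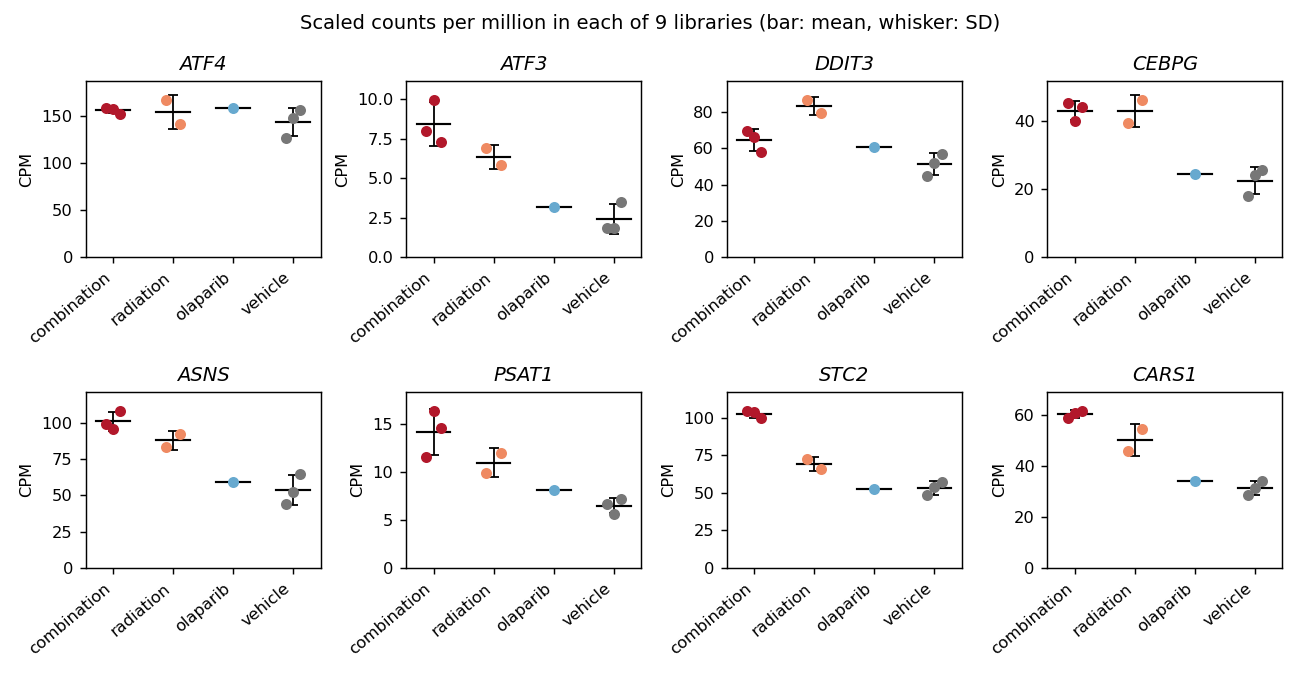
Scaled CPM (y axis, from 0) of 8 genes in each of the 9 libraries, with combination, radiation, olaparib and vehicle from left to right; points are libraries, bars the group mean and whiskers the SD, and olaparib has 1 library. ATF3, CEBPG, ASNS, PSAT1, STC2 and CARS1 are higher in both irradiated groups than in vehicle, DDIT3 is highest in radiation, and ATF4 overlaps between groups.

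Among the 7 effector and feedback genes, STC2 and PPP1R15A rose in both comparisons with vehicle, and the log2 change was above 0 in all 7 in both. STC2 (ENSG00000113739), a secreted glycoprotein hormone induced by stress in the endoplasmic reticulum, had 105, 103 and 99.5 CPM in the combination libraries, 72.3 and 65.9 CPM in the radiation libraries and 52.9 CPM in olaparib 1, against 48.4, 53.9 and 57.1 CPM in the vehicle libraries. The combination libraries were the highest, the radiation libraries came next without overlap, and olaparib 1 lay within vehicle. The combination was 1.93-fold vehicle (log2 change of 0.95, with an SE of 0.085 and adjusted p = 4.49e-14) and radiation 1.30-fold (log2 change of 0.38, with an SE of 0.094 and adjusted p = 0.0192). The radiation call was lost without vehicle 1 (adjusted p = 0.169), vehicle 2 (0.0701) or radiation 1 (0.324), by limma-voom (0.0657) and with only the 2 groups compared (0.0993).

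PPP1R15A encodes GADD34, which directs a phosphatase to eIF2 and so restores translation. It averaged 46.0 ± 4.49 CPM (SD, n = 3) in the combination, 52.7 ± 0.610 CPM (SD, n = 2) in radiation and 43.6 CPM (n = 1) in olaparib, against 36.7 ± 5.55 CPM (SD, n = 3) in vehicle. Combination 1 lay below vehicle 3, so these groups overlapped, whereas both radiation libraries lay above every vehicle library. Radiation gave log2 change of 0.52, with an SE of 0.11 and adjusted p = 0.00408, and the combination log2 change of 0.33, with an SE of 0.10 and adjusted p = 0.0493. The combination call was lost without any of 7 libraries: vehicle 1 (adjusted p = 0.256), vehicle 2 (0.314), olaparib 1 (0.0683), radiation 1 (0.0508), radiation 2 (0.0584), combination 2 (0.185) or combination 3 (0.33). It was also lost by limma-voom (0.153) and with only the 2 groups compared (0.0665). The radiation call was lost without vehicle 1 (0.0524), vehicle 2 (0.0781) or radiation 1 (0.0784).

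The remaining effectors did not pass the threshold. SESN2, a leucine sensor that holds back mTORC1, was counted 15 to 107 times and had 2.48, 3.41 and 2.95 CPM in the combination libraries, 3.57 and 2.35 CPM in the radiation libraries and 1.39 CPM in olaparib 1, against 1.25, 0.475 and 1.79 CPM in the vehicle libraries. Within the 9 libraries, every irradiated one lay above every unirradiated one. Of those given apart, the unirradiated olaparib 2 and olaparib 3 had 4.80 and 4.63 CPM by library size, against at most 3.70 CPM in the 9. By TMM over the 12 they had 3.52 and 3.17 CPM, against 2.56 to 3.94 CPM in the irradiated ones of the 9. The combination was 2.51-fold vehicle and radiation 2.52-fold, with adjusted p = 0.0502 and 0.176. The combination change passed with DESeq2's size factors in edgeR (adjusted p = 0.0478), without vehicle 3 (0.0241) and without radiation 2 (0.0459). CHAC1, which degrades glutathione, was counted 13 to 55 times and had 2.68, 2.42 and 1.995 CPM in the combination libraries, 0.433 and 1.61 CPM in the radiation libraries and 1.18 CPM in olaparib 1, against 1.21, 0.697 and 0.832 CPM in the vehicle libraries. Its combination libraries were the highest of the 9, and radiation 1 was the lowest (log2 change of 1.37, with an SE of 0.51 and adjusted p = 0.125 in the combination). TRIB3, a pseudokinase that restrains ATF4, had 3.41, 2.42 and 1.90 CPM in the combination, against 1.33, 1.08 and 2.24 CPM in vehicle. DDIT4, an mTORC1 inhibitor, and VLDLR, a lipoprotein receptor, had combination changes of 0.036 and 0.18 on the log2 scale.

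Of the 13 enzymes of amino acid and one-carbon synthesis, ASNS, PSAT1 and MTHFD2 rose in the combination, and ASNS and MTHFD2 in radiation. The median log2 change of the 13 was 0.13 in the combination and 0.046 in radiation. ASNS (ENSG00000070669), which makes asparagine, had 99.1, 95.5 and 108 CPM in the combination libraries, 83.3 and 92.7 CPM in the radiation libraries and 59.1 CPM in olaparib 1, against 43.9, 52.4 and 64.6 CPM in the vehicle libraries. Each combination library lay above each radiation library, and both groups lay above vehicle. The combination was 1.88-fold vehicle (log2 change of 0.91, with an SE of 0.10 and adjusted p = 5.21e-07) and radiation 1.64-fold (log2 change of 0.71, with an SE of 0.11 and adjusted p = 0.00037).

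Of the 3 enzymes that make serine from a glycolytic intermediate, PSAT1 was the one called. PSAT1 (ENSG00000135069), the aminotransferase at the second step, had 11.5, 16.4 and 14.5 CPM in the combination libraries, 9.87 and 11.997 CPM in the radiation libraries and 8.15 CPM in olaparib 1, against 6.62, 5.64 and 7.20 CPM in the vehicle libraries. Both irradiated groups lay above the unirradiated libraries, and combination 1 lay within the radiation range. The combination was 2.18-fold vehicle (log2 change of 1.13, with an SE of 0.19 and adjusted p = 1.84e-05); in radiation the change was 1.68-fold with an adjusted p of 0.0548, and it passed the threshold by DESeq2 (0.0329), with DESeq2's size factors in edgeR (0.0436), with library size as the sole scaling (0.0107) and with no count filter (0.0382). PHGDH, the dehydrogenase at the first step, had 22.0, 26.5 and 27.4 CPM in the combination libraries, 22.2 and 27.7 CPM in the radiation libraries and 20.3 CPM in olaparib 1, against 15.9, 23.0 and 21.6 CPM in the vehicle libraries. Its groups overlapped, with vehicle 1 the lowest library (log2 change of 0.33, with an SE of 0.14 and adjusted p = 0.205 in the combination). PSPH, the phosphatase at the last step, had 12.6, 14.2 and 14.5 CPM in the combination, against 12.3, 10.8 and 11.3 CPM in vehicle (log2 change of 0.26, with an SE of 0.17 and adjusted p = 0.547).

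MTHFD2, a mitochondrial enzyme of folate-dependent one-carbon metabolism, had 267, 245 and 234 CPM in the combination libraries, 248 and 224 CPM in the radiation libraries and 221 CPM in olaparib 1, against 159, 188 and 194 CPM in the vehicle libraries. The 5 irradiated libraries lay above the rest, and olaparib 1 lay between them and vehicle. The combination was 1.38-fold vehicle (log2 change of 0.46, with an SE of 0.074 and adjusted p = 4.25e-06) and radiation 1.31-fold (log2 change of 0.39, with an SE of 0.081 and adjusted p = 0.00254). The radiation call was lost without vehicle 1 (adjusted p = 0.0722) or radiation 1 (0.17). Of the other enzymes of mitochondrial folate metabolism, SHMT2 had a log2 change of 0.11 and ALDH1L2 of -0.46 in the combination, and neither passed the test. GPT2, which makes alanine, had 39.3, 43.2 and 27.1 CPM in the combination, against 29.7, 25.1 and 26.9 CPM in vehicle, and did not pass the test (adjusted p = 0.168). Its combination libraries split, with combination 3 inside the vehicle range and the other 2 above it; without combination 3 the adjusted p was 0.00175. The proline enzymes PYCR1 and ALDH18A1, the transsulfuration enzymes CTH and CBS, and PCK2, a mitochondrial carboxykinase, had log2 changes of -0.46 to 0.13 in the combination, with none called. CBS reads can be shared with a near-identical gene copy, so its values are uncertain.

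The cytosolic tRNA synthetases, which load amino acids onto tRNAs, formed the largest group of calls. In the combination 8 of 12 rose and in radiation 7 of 12, against 1.53% and 0.42% of all genes tested. All 12 had log2 changes above 0 in both, with medians of 0.47 and 0.42. Their summed CPM was 2819.7, 2687.7 and 2717.4 in the combination libraries, 2643.7 and 2760.9 in the radiation libraries and 2280.9 in olaparib 1, against 2093.8, 2216.3 and 2326.2 in the vehicle libraries. The irradiated libraries did not overlap with the unirradiated ones in that sum. CPM is not adjusted for transcript length, so levels of different synthetases are not compared.

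CARS1 (ENSG00000110619), which loads cysteine, had the largest change of the 12. It had 58.6, 60.6 and 61.5 CPM in the combination libraries, 45.6 and 54.5 CPM in the radiation libraries and 34.2 CPM in olaparib 1, against 28.5, 31.4 and 34.1 CPM in the vehicle libraries. The combination libraries lay above both radiation libraries, and radiation above all unirradiated ones. The combination was 1.92-fold vehicle (log2 change of 0.94, with an SE of 0.10 and adjusted p = 3.46e-11) and radiation 1.60-fold (log2 change of 0.68, with an SE of 0.11 and adjusted p = 3.1e-05). MARS1, for methionine, had 38.2, 40.1 and 43.5 CPM in the combination libraries, 35.1 and 35.8 CPM in the radiation libraries and 24.4 CPM in olaparib 1, against 23.8, 24.0 and 29.6 CPM in the vehicle libraries. Here too the combination lay above radiation and radiation above the unirradiated libraries, at 1.57-fold vehicle in the combination (log2 change of 0.65, with an SE of 0.11 and adjusted p = 1.5e-05) and 1.37-fold in radiation (log2 change of 0.46, with an SE of 0.12 and adjusted p = 0.036). The radiation call of MARS1 was lost without vehicle 1 (adjusted p = 0.188), vehicle 2 (0.216), olaparib 1 (0.0548), radiation 1 (0.171) or radiation 2 (0.154), by limma-voom (0.10) and with only the 2 groups compared (0.114).

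AARS1, for alanine, had 273, 265 and 275 CPM in the combination libraries, 232 and 263 CPM in the radiation libraries and 171 CPM in olaparib 1, against 159.9, 171 and 201 CPM in the vehicle libraries. All irradiated libraries lay above the rest, and olaparib 1 lay within vehicle (log2 change of 0.62, with an SE of 0.074 and adjusted p = 3.04e-09 in the combination). GARS1, for glycine, which also serves mitochondria, had 507, 423 and 450.3 CPM in the combination libraries, 393 and 444 CPM in the radiation libraries and 284 CPM in olaparib 1, against 291, 315 and 325 CPM in the vehicle libraries. Olaparib 1 was the lowest of the 9 libraries and combination 1 the highest (log2 change of 0.57, with an SE of 0.069 and adjusted p = 3.53e-09 in the combination). In radiation the log2 change was 0.48 for AARS1 (adjusted p = 7.82e-05) and 0.43 for GARS1 (adjusted p = 0.000161).

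TARS1, for threonine, had 207, 190.4 and 193 CPM in the combination libraries, 194 and 199 CPM in the radiation libraries and 145 CPM in olaparib 1, against 124, 139.7 and 131 CPM in the vehicle libraries. The irradiated groups covered one range, at 1.496-fold vehicle in the combination and 1.49-fold in radiation (adjusted p = 6.91e-09 and 6.98e-07). SARS1, for serine, had 113, 121 and 114 CPM in the combination libraries, 115 and 119.8 CPM in the radiation libraries and 88.4 CPM in olaparib 1, against 75.8, 75.6 and 96.2 CPM in the vehicle libraries. Here too both irradiated groups lay together above the rest, at 1.40-fold in the combination and 1.42-fold in radiation (adjusted p = 1.44e-05 and 0.00018).

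IARS1, for isoleucine, a subunit of the multisynthetase complex, had 322, 307 and 340.2 CPM in the combination libraries, 315 and 356 CPM in the radiation libraries and 280.0 CPM in olaparib 1, against 249, 246 and 262 CPM in the vehicle libraries. Radiation 2 was the highest library, and olaparib 1 lay between vehicle and the irradiated libraries (log2 change of 0.36, with an SE of 0.068 and adjusted p = 0.000135 in the combination, log2 change of 0.41, with an SE of 0.075 and adjusted p = 0.000253 in radiation). YARS1, for tyrosine, had 76.0, 72.3 and 78.1 CPM in the combination libraries, 65.2 and 71.9 CPM in the radiation libraries and 55.1 CPM in olaparib 1, against 47.7, 59.0 and 59.8 CPM in the vehicle libraries. The combination rose 1.36-fold (adjusted p = 0.000425); both radiation libraries lay above vehicle as well, but the change of 0.30 on the log2 scale did not pass (adjusted p = 0.145).

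The other 4 did not pass the test in either comparison. Their log2 changes in the combination were 0.23 for WARS1 (tryptophan), 0.17 for NARS1 (asparagine), 0.067 for EPRS1 (glutamate and proline) and 0.019 for LARS1 (leucine). EPRS1 and LARS1 sit in the multisynthetase complex together with IARS1 and MARS1, which were called. NARS1 had 175, 175 and 166 CPM in the combination, all above the vehicle values of 149, 160.4 and 151 CPM, and in radiation it split into 195 and 156 CPM; without radiation 2 it passed in radiation versus vehicle (adjusted p = 0.0458).

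Other synthetases were taken as 2 further lists, beside 1.53% of all genes tested called higher and 3.26% lower in combination versus vehicle. Of 11 other cytosolic synthetases and complex partners that are not among the 43, 0 were higher and 1 was lower in the combination, with a median log2 change of -0.051. That one was AIMP1, a scaffold of the multisynthetase complex, at 60.1 ± 1.83 CPM (SD, n = 3) in the combination, against 75.3 ± 1.77 CPM (SD, n = 3) in vehicle (log2 change of -0.33, with an SE of 0.085 and adjusted p = 0.00919). The AIMP1 call was lost with library size as the sole scaling (log2 -0.13, adjusted p = 0.443), with the covariate (0.19) and without vehicle 2 (0.0622). At an unadjusted p under 0.05, 2 of the 11 were higher, and neither DESeq2 nor limma-voom called any higher. Of 17 mitochondrial synthetases, 0 were higher, also at an unadjusted p under 0.05, by DESeq2 and by limma-voom, and 3 were lower in the combination, with a median of -0.11. Of the 3, VARS2, for mitochondrial valine, had the largest change, at 5.72 ± 0.849 CPM (SD, n = 3) in the combination, against 9.91 ± 2.15 CPM (SD, n = 3) in vehicle (log2 change of -0.79, with an SE of 0.22 and adjusted p = 0.0141). Its call was lost without vehicle 3 (0.207), combination 1 (0.0848) or combination 3 (0.0616), with library size as the sole scaling (0.0819), by limma-voom (0.0873) and with the covariate (0.0694). In the promoter windows, TGATGNAA occurred in 7 of 10 of the synthetases among the 43 (70.0%), 0 of 9 of the other cytosolic ones and partners, and 1 of 14 mitochondrial ones (7.14%). The 12 synthetases among the 43 were listed as known members of the pathway, and all lists were chosen with earlier results of these data known. The split therefore follows that choice, and the difference between the lists was not tested.

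**Figure D4:**
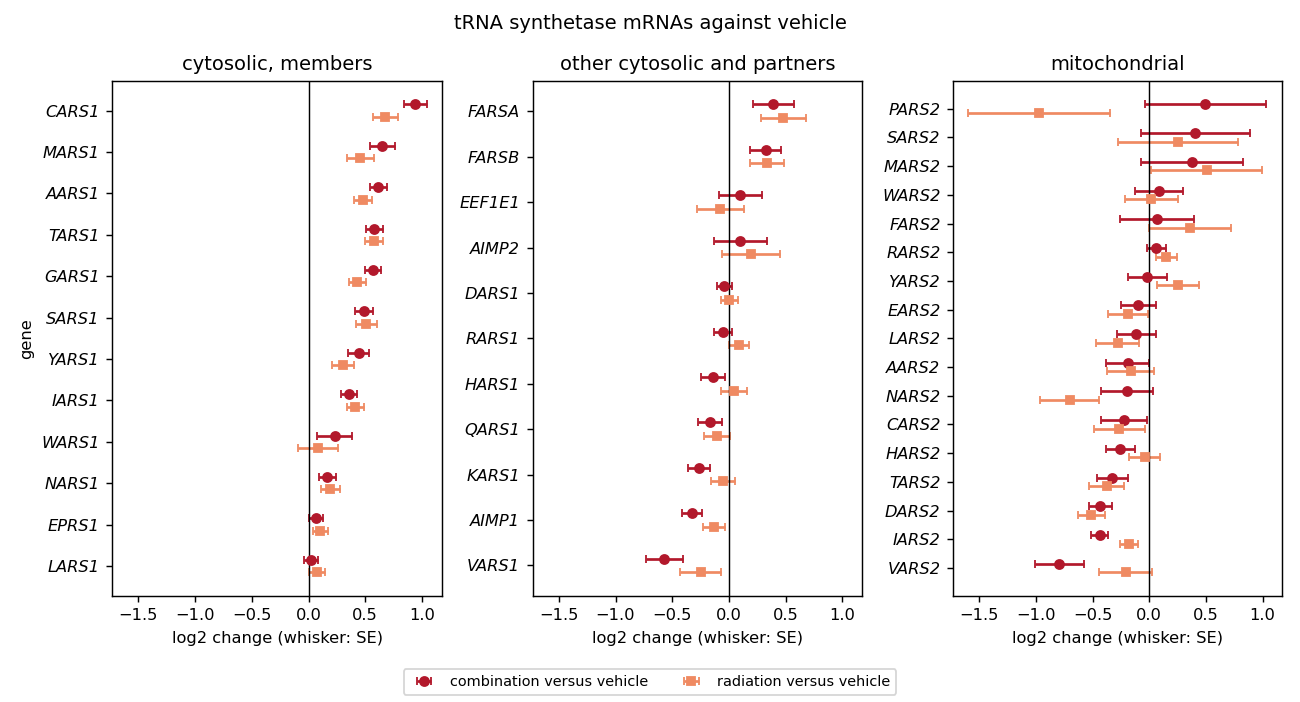
The x axis is the log2 change against vehicle with its SE as whisker, for the combination (circles) and radiation (squares), and each row is a gene ordered by its combination change. The left panel holds the 12 synthetases among the 43, all right of 0. The other cytosolic synthetases and partners (middle) and the mitochondrial ones (right) lie on both sides of 0.

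Olaparib before radiation was set against radiation alone. In combination versus radiation, 1 of the 43 was higher and 0 were lower, against 0.142% and 0.426% of all genes tested, and the median log2 change was 0.077, against 0.034 over all genes. The 0 lower calls stood beside 2 at an unadjusted p under 0.05, 1 by DESeq2 and 0 by limma-voom. The gene called was STC2, at 103 ± 2.68 CPM (SD, n = 3) in the combination, against 69.1 ± 4.52 CPM (SD, n = 2) in radiation, a 1.48-fold difference (log2 change of 0.57, with an SE of 0.10 and adjusted p = 0.000153). With the covariate over 12 libraries its adjusted p was 0.0807. DDIT3 had 64.7 ± 5.93 CPM (SD, n = 3) in the combination, against 83.2 ± 5.00 CPM (SD, n = 2) in radiation, and did not pass (log2 change of -0.36, with an SE of 0.10 and adjusted p = 0.0749); it passed by DESeq2 (0.0329), with no count filter (0.0494) and without radiation 2 (0.044). The 12 synthetases had log2 differences of -0.058 to 0.27 with none called, the largest in CARS1 (log2 change of 0.27, with an SE of 0.11 and adjusted p = 0.376). CHAC1 and ATF5 had larger differences, 1.21 and 0.71, with SEs of 0.58 and 0.33, and neither passed.

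The interaction asks whether the combination departs from the sum of the 2 single treatments on the log2 scale. In edgeR it called 0 of the 43 higher and 0 lower, against 0.0969% and 0.103% of all genes. At an unadjusted p under 0.05 there were 2 higher and 4 lower, 1 was higher and 0 lower by DESeq2, and 0 in either direction by limma-voom. STC2 had a log2 change of 0.58, with an SE of 0.15 and adjusted p = 0.113 (0.00888 by DESeq2), and DDIT3 had a log2 change of -0.61, with an SE of 0.16 and adjusted p = 0.105, with 0.0449 under no count filter, 0.0285 without vehicle 3 and 0.0402 without radiation 2. With all 12 libraries the DDIT3 interaction was 0.10. The interaction rests on the 1 olaparib library kept.

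**Figure D5:**
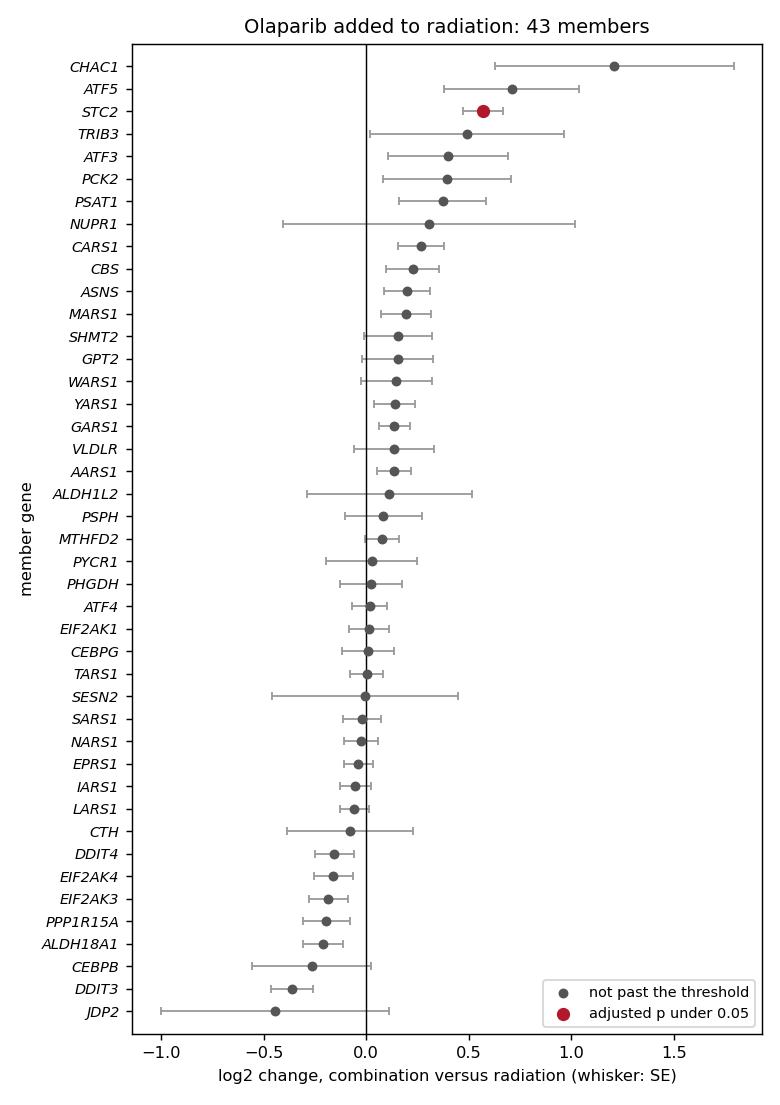
The x axis is the log2 difference of the combination over radiation with its SE as whisker, and each row is 1 of the 43 genes ordered by that difference. STC2 (red) is the gene past the adjusted threshold of 0.05; CHAC1 and ATF5 lie farther right with wider whiskers, and DDIT3 lies near the left end.

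Olaparib alone was represented by 1 library, whose spread was assumed to be that of the other groups. Of the 43 genes, 0 were called higher and 0 lower by edgeR, DESeq2 and limma-voom, against 0.00969% and 0.0581% of all genes by edgeR, with 1 higher and 0 lower at an unadjusted p under 0.05. The median log2 change was 0.11, against -0.019 over all genes. MTHFD2 was the one below the unadjusted threshold, at 221 CPM in olaparib 1, against 159, 188 and 194 CPM in vehicle (log2 change of 0.29, with an SE of 0.10 and adjusted p = 1); with all 12 libraries its log2 change was -0.29. For the 12 synthetases the median was 0.069 and the signs were mixed, from -0.13 in GARS1 to 0.16 in WARS1.

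In the 3 libraries given apart, the values of the 43 genes depended on the scaling. Scaled by library size, radiation 3 lay above all 3 vehicle libraries in 34 of the 43 and below them in 2, and 13 of the 14 genes called in radiation versus vehicle were above; 57.3% of all genes tested were above and 13.8% below in that library. Scaled by TMM over the 12 libraries, 16 were above, 17 below, and 7 of the 14 above, with 38.6% of all genes above and 30.4% below. Olaparib 2 and olaparib 3 each had 18 above and 19 below by library size, and by TMM 6 and 5 above and 34 below in each. Of all genes tested, by library size 63.9% lay above the vehicle libraries in olaparib 2 and 66.1% in olaparib 3, with 17.0% and 16.6% below. By TMM, 45.7% and 45.9% were above and 35.3% and 35.4% below.

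Other genes of the pathway were taken as lists, beside 1.53% of all genes tested called higher and 3.26% lower in combination versus vehicle. Of 24 further ATF4 targets and secreted factors tested, 2 rose and 0 fell in the combination, with a median log2 change of 0.17; for the 0 that fell, 1 was lower at an unadjusted p under 0.05 and 1 by DESeq2 and by limma-voom. NIBAN1, a stress-induced regulator of translation, had the larger rise, at 14.5 ± 1.60 CPM (SD, n = 3) in the combination, with 8.56 ± 3.15 CPM (SD, n = 2) in radiation, against 4.46 ± 0.296 CPM (SD, n = 3) in vehicle (log2 change of 1.70, with an SE of 0.21 and adjusted p = 6.91e-09). Of 9 amino acid transporters tested, 2 rose and 0 fell, and 0 were lower at an unadjusted p under 0.05, by DESeq2 or by limma-voom. The larger rise was in SLC7A11, the cystine carrier, at 6.58 ± 0.905 CPM (SD, n = 3) in the combination, against 3.39 ± 0.832 CPM (SD, n = 3) in vehicle (log2 change of 0.96, with an SE of 0.28 and adjusted p = 0.0258), a call lost without vehicle 2 (0.176), vehicle 3 (0.107), combination 2 (0.0824) or combination 3 (0.159) and with the covariate (0.0688). Of 13 genes of the machinery around eIF2 and its exchange factor eIF2B, 2 rose (EIF2S2 and PPP1R15B) and 2 fell (EIF2B3 and GCN1). EIF2S2, the beta subunit of eIF2, rose to 180.4 ± 9.26 CPM (SD, n = 3) in the combination, against 132 ± 10.0 CPM (SD, n = 3) in vehicle (log2 change of 0.45, with an SE of 0.074 and adjusted p = 9.66e-06). EIF2B3 fell to 7.55 ± 0.335 CPM (SD, n = 3), against 11.8 ± 1.93 CPM (SD, n = 3) (log2 change of -0.64, with an SE of 0.19 and adjusted p = 0.0293), a call lost without vehicle 1 (0.161), vehicle 2 (0.158) or any combination library (0.0943, 0.0793 and 0.0549 without combination 1, 2 and 3). It was also lost with library size as the sole scaling (0.162), by limma-voom (0.103) and with the covariate (0.133).

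The unfolded protein response answers stress in the endoplasmic reticulum and is not limited to the kinase PERK and eIF2. In radiation versus vehicle, 1 of 16 of its targets, HERPUD1, was called higher and 2, HSPA5 and MANF, lower, against 0.42% and 0.678% of all genes. Of the 16, 0 rose and 6 fell in the combination, with a median of -0.25, against 1.53% of all genes called higher and 3.26% lower. For the 0 that rose, 1 was higher at an unadjusted p under 0.05, 1 by DESeq2 and 0 by limma-voom. Of the 6, MANF, a secreted chaperone cofactor, had the largest change, at 19.1 ± 0.330 CPM (SD, n = 3) in the combination, with 20.8 ± 0.763 CPM (SD, n = 2) in radiation, against 31.8 ± 4.17 CPM (SD, n = 3) in vehicle (log2 change of -0.74, with an SE of 0.13 and adjusted p = 1.83e-05).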

How the data were processed

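Total RNA of 12 SBC5 libraries was sequenced with a stranded kit, per the labels' protocols. Per the submitters' processing notes, kallisto 0.46.1 and DESeq2 were used; which transcriptome release and build they used is not given in the sources used here. The authors deposited estimated counts (expected counts) per gene; 68.8% of the values were whole to within 1e-06. The 44 pseudoautosomal Y copies were added to their X genes, the counts were rounded, and 0 columns of other samples were present. Gene symbols came from a name table that matched 60463 of 60605 genes. A library was set aside where its olfactory receptor sum passed 1.5 times the median over all 12.

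The main test used R 4.3.3 with edgeR 4.0.16 on the 9 libraries kept: default low count filter, TMM scaling, 1 mean per group, a robust quasi-likelihood test and Benjamini-Hochberg adjustment over 30967 genes, with a threshold of 0.05. CPM values are TMM-scaled, and each SE is the log2 change over the square root of F. Depth limits the precision of the least counted genes, at 13 to 107 counts for CHAC1, SESN2 and JDP2. Alternatives were DESeq2 1.42.0, voom in limma 3.58.1, other scalings and filters (no filter, or 1 CPM in 3 libraries), all 12 libraries with or without the olfactory receptor sum as covariate, the compared groups on their own, a block for the replicate number, and each library left out. The fit was checked on simulated counts. Pairs of libraries were compared for duplicates, and none was found.

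The 43 genes and all lists were chosen with earlier results of these data known. Values in every library were to be given for ATF4, ATF3, DDIT3, ASNS, PSAT1, PHGDH and the 15 members with the largest called change in combination versus vehicle; those of other members were added after they were seen. From each other list the called gene with the largest change in each direction was named, and the motif windows of 4 called genes printed.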

Additional observations from a re-analysis of the deposited data

Results flagged for a closer look

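The 3 libraries given apart held signal of NUPR1 and ALDH1L2 above the level of vehicle, outside the comparisons reported. These 2 of the 43 (4.65%) lay above all the other 9 libraries in each of the 3 under both scalings, as 20% of all genes tested did. On the library-size scale NUPR1 had 51.4 CPM in olaparib 2, 56.3 CPM in olaparib 3 and 22.9 CPM in radiation 3, against 1.67 to 8.48 CPM in vehicle. ALDH1L2 had 8.69 CPM in olaparib 2, 12.8 CPM in olaparib 3 and 6.43 CPM in radiation 3, against 2.73 to 3.89 CPM in vehicle. In the 9 libraries used, NUPR1 reached 0.9 to 8.48 CPM and ALDH1L2 1.73 to 3.89 CPM. By library size alone, SESN2 (4.80, 4.63 and 5.17 CPM in olaparib 2, olaparib 3 and radiation 3, against at most 3.70 CPM in the 9) and PCK2 (6.32, 7.41 and 7.41 CPM, against at most 6.23 CPM in the 9) were above as well, which made 4 of the 43 (9.30%), against 27.1% of all genes. The olfactory receptor sum moved with these values, and its part in them was not tested.

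HSPA5, the chaperone BiP of the unfolded protein response, differed in its response to olaparib with and without radiation: the interaction was 0.67 on the log2 scale (SE 0.13, edgeR adjusted p = 0.00547). It had 523 ± 65.2 CPM (SD, n = 3) in the combination, 609.7 ± 0.0549 CPM (SD, n = 2) in radiation and 457 CPM (n = 1) in olaparib, against 845 ± 51.6 CPM (SD, n = 3) in vehicle. The adjusted p was 0.124 without radiation 1 and 0.0777 with the covariate over 12 libraries.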

How the results depend on the processing

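Over 54 gene results and 19 settings, 883 of 1019 values kept their direction and their side of the threshold. Only 40 of the 54 results were called, and the rest had no call to lose. With all 12 libraries in 1 fit, each of the 40 lost its call. Over all settings, 113 values lost their call, 20 gained one and 3 reversed. The reversed ones were ATF4 in radiation versus vehicle without radiation 1 (log2 -0.022; with each library left out the values ran up to 0.23, without radiation 2), and, with all 12 libraries, DDIT3 in the interaction (0.10) and MTHFD2 in olaparib versus vehicle (-0.29); the cause was not tested. With all 12 libraries, 0 of the 43 genes were called higher for the combination or for radiation against vehicle, and 0 for the combination against radiation, where the covariate fit also called 0. With library size as the sole scaling, 25 were called higher in combination versus vehicle, and the median log2 change there was 0.216 over all genes, against 0.0156 with TMM. In combination versus radiation, 1 was called lower by DESeq2 and 1 with no count filter. In the interaction, 1 was called higher by DESeq2 and 1 lower with no count filter.

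With each library left out in turn, 14 to 17 were called higher in combination versus vehicle and 9 to 14 in radiation versus vehicle, the 9 without radiation 1. In combination versus radiation and in the interaction, 0 to 1 were called lower, the 1 without radiation 2 and, in the interaction, also without vehicle 3.

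Replicate numbers did not pair the libraries (correlations of same-numbered libraries -0.0463 to 0.00584). With the replicate number as a block, 18 were called higher in combination versus vehicle and 14 in radiation versus vehicle.

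The 2 radiation libraries and 1 olaparib library limit what those comparisons and the interaction can detect.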

Other observations

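Mitochondrial stress can reach the eIF2 kinases through a relay of mitochondrial proteins. Of 9 genes of that relay and of mitochondrial protein quality control, 0 rose and 4 fell in the combination (edgeR, adjusted p under 0.05). Of all genes tested, 1.53% were called higher there and 3.26% lower. The median log2 change of the 9 was -0.31. For the 0 that rose, 1 was higher at an unadjusted p under 0.05 and 0 by DESeq2 and by limma-voom, and these tools called 2 and 1 lower. The genes that fell were the prohibitins PHB1 and PHB2 and the matrix chaperonins HSPD1 and HSPE1. Of these 4, PHB1 had the largest change, at 19.4 ± 2.30 CPM (SD, n = 3) in the combination, against 27.0 ± 6.68 CPM (SD, n = 3) in vehicle (log2 change of -0.47, with an SE of 0.14 and adjusted p = 0.0427). Its call was lost by DESeq2 (adjusted p = 0.0562) and by limma-voom (0.219), with library size as the sole scaling (0.311), the covariate (0.246), only the 2 groups compared (0.0956) or the stricter count filter (0.0626), and without vehicle 1 (0.178), vehicle 3 (0.366), olaparib 1 (0.0731), radiation 1 (0.0598), combination 1 (0.192) or combination 3 (0.197). In radiation alone, 0 of the 9 were called in either direction by edgeR, DESeq2 and limma-voom, nor at an unadjusted p under 0.05.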
